A study of Mus musculus with 6 samples.

Results

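The genes for the proteins of the cytosolic small ribosomal subunit were examined in leptotene/zygotene (L/Z) spermatocytes with and without Eef1g. They were taken by symbol, as every protein-coding row named Rpsa or Rps followed by a number and an optional suffix of a, a1 or x, which gave 31 of the 54532 genes in the table. Kinases of ribosomal protein S6, pseudogenes and the paralogs Rps27l, Rps27rt and Rps4l were left out by this rule. All RNA came from cells sorted as L/Z spermatocytes by flow cytometry after Hoechst staining, from testes of mice aged 12 days postpartum (dpp). By the study's staining the sorts were enriched for L/Z spermatocytes to a like degree in both genotypes, but were not pure. The 3 control libraries were from mice labelled wild type, which the study describes as littermates; whether they carried the floxed allele or Cre was not stated. The 3 Eef1g-cKO libraries were from mice on a C57BL/6J background in which Stra8-GFPCre, active in germ cells from the spermatogonial stage, deletes exons 2 to 7 of Eef1g. Whether each library came from 1 animal or from pooled animals was not stated, so p-values measure the spread between these libraries, which may be technical.

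A ribosome is built from a small subunit, which binds the mRNA and reads its codons, and a large subunit, which joins the amino acids. The small subunit has a head and a body with a platform, and mRNA threads through the cleft between them. Its proteins are made in near-equal amounts from separate genes, most of them expressed in every cell. Vertebrate mRNAs of these proteins usually open with a TOP motif, a cytosine followed by a run of pyrimidines, through which their translation responds to the kinase mTOR. Eef1g encodes a subunit of the elongation factor complex eEF1, which brings aminoacyl-tRNA to the ribosome.

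The 31 genes lay on 13 chromosomes, with 9 on chromosome 7, and 8 of them held a named snoRNA on the same strand within the gene. Since the TOP motif is the sequence feature for which the family is known, the annotated starts were searched for a C followed by at least 4 bases that were C or T, with that C within 5 bases of the start on either side. RefSeq promoter sequences (GRCm38.p6) were at hand for 23 of the 31 genes, in 27 entries. The motif was present in 11 of the 27 entries (40.7%), compared with 18.3% of the 32851 entries of all genes. On the opposite strand the same search found 11.1% of the member entries and 21.4% of all entries. Each window below holds the 25 bases before the annotated start and the 15 from it onward on the gene's strand, with the pyrimidine run in capitals. The first 4 genes were lower in Eef1g-cKO by the test described below and the last 4 were not called. They are shown as examples of starts with and without the run in each of these sets.
Rpsa (chr9:120127741-120127780, plus strand): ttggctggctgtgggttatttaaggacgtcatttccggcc
Rps4x (chrX:102189377-102189416, minus strand): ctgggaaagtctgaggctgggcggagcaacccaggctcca
Rps7 (chr12:28635939-28635978, minus strand): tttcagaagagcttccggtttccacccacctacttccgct
Rps18 (chr17:33955651-33955690, minus strand): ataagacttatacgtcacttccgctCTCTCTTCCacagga
Rps6 (chr4:86857353-86857392, minus strand): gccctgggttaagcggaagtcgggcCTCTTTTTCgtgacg
Rps13 (chr7:116334176-116334215, minus strand): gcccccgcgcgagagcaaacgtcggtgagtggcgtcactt
Rps24 (chr14:24490653-24490692, plus strand): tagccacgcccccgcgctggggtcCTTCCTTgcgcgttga
Rps27 (chr3:90213634-90213673, minus strand): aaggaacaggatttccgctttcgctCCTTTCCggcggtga
The run was found in 2 of the 10 lower genes with an entry and in 8 of the 12 tested genes with an entry that were not called. This split was noticed after the calls were known and has no test, and an annotated start can lie several bases from the start used in these cells.

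In control cells the levels of the small subunit genes differed widely between members. Levels per length are given as CPM, which counts reads of a gene in every 1000000 after scaling of the libraries, divided by the gene length of the table in kilobases. The highest mean control level per length was that of Rps3a1, a platform protein, at 1991 ± 285 (SD, n = 3). Rps21 followed at 1822 ± 181, and Rps23, which sits at the decoding centre, at 1273 ± 10.8. The spreads of Rps3a1 and Rps21 overlapped, so their order is not resolved, and with the shorter mRNA length of the annotation Rps21, Rps27a and Rps28 ranked highest. The lowest levels on the table's length were those of Rps3 at 44.1 ± 1.65, Rps4x at 37.8 ± 5.36 and Rps10 at 0.404 ± 0.699. The value of Rps10 is the deposited count only and is not taken as its own level. Near-identical copies and an overlapping read-through gene are described below. The order of the 31 genes differed little between libraries. Spearman's rho of their levels per mRNA length was 0.954 to 0.989 between control libraries, 0.950 to 0.975 between Eef1g-cKO libraries and 0.930 to 0.964 between the genotypes, a description over genes that share the same libraries.

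Together the 31 genes held 2.74%, 2.62% and 2.81% of the reads of control replicates 1 to 3. They held 1.91%, 2.16% and 1.62% of the reads of Eef1g-cKO replicates 1 to 3. Every Eef1g-cKO library thus lay below every control library, with a mean of 1.89% ± 0.272 against 2.72% ± 0.10 (SD, n = 3), a ratio of 0.696. Without mitochondrial and rRNA genes in the total the shares were 2.14% ± 0.206 and 3.16% ± 0.0827. The exact permutation test over libraries gave p = 0.1 (two-sided) for both measures, the smallest value that 3 against 3 libraries allow. In such bulk samples, less of these mRNAs per cell and fewer cells of a type rich in them cannot be told apart.

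**Figure D1:**
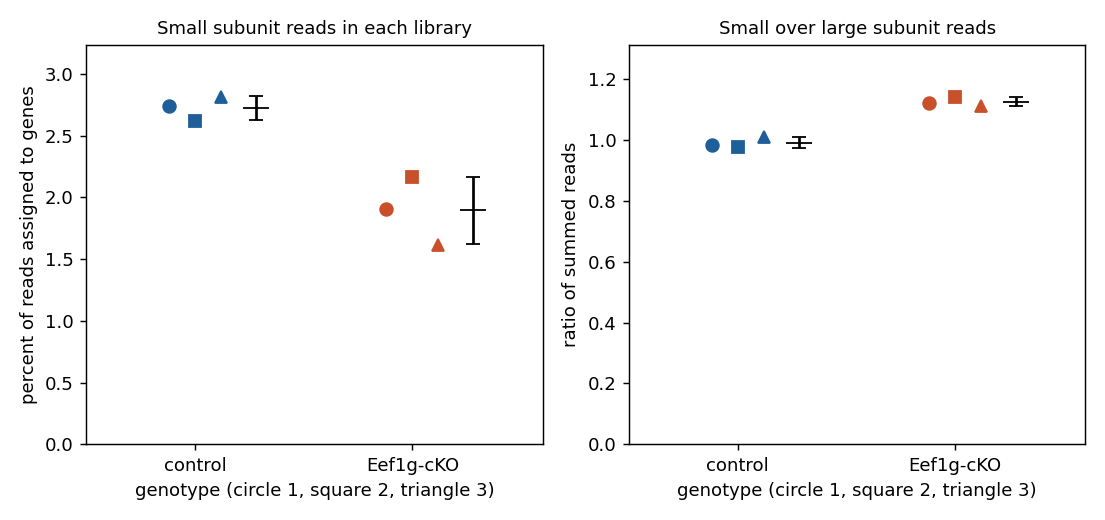
Left, reads of the 31 small subunit genes as a percent of all reads assigned to genes; right, the ratio of their summed reads to those of the 46 large subunit genes. Each point is a library (circle, replicate 1; square, replicate 2; triangle, replicate 3), and bars are the mean and SD of 3 libraries; the share ranges from 2.62% to 2.81% in control and from 1.62% to 2.16% in Eef1g-cKO, and the ratio from 0.976 to 1.01 and from 1.11 to 1.14.

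The reads of the 46 large subunit genes also took a smaller share in Eef1g-cKO, 1.68% ± 0.220 against 2.75% ± 0.0585 of a library. Reads of the small subunit genes divided by those of the large subunit genes came to 0.985, 0.976 and 1.01 in control and to 1.12, 1.14 and 1.11 in Eef1g-cKO. This ratio needs no scaling between libraries, and its groups did not overlap (0.991 ± 0.0180 and 1.13 ± 0.0149, exact permutation test, two-sided p = 0.1, the smallest possible). The median log2 fold change was -0.58 over the 44 tested large subunit genes and -0.54 over the 30 tested small subunit genes. For the large subunit 20 of 44 genes were called lower and 0 higher, with 32 lower and 0 higher at an unadjusted p under 0.05, a level at which 1125 of the 8513 tested genes were lower and 1217 higher.

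Among the small subunit genes, 12 of 30 tested were lower in Eef1g-cKO and 0 were higher, at an adjusted p under 0.05. The tests were made with edgeR's quasi-likelihood method and Benjamini-Hochberg adjustment over all 8513 genes tested. The same rule called 6.01% of all tested genes lower and 7.8% higher. The estimate was negative for 27 of the 30 genes, and their median log2 fold change was -0.54 beside -0.05 for all tested genes. At an unadjusted p under 0.05, 19 were lower and 1 higher, beside 13.2% and 14.3% of all tested genes. DESeq2 called 15 lower and 0 higher, and limma-voom 19 lower and 1, Rps27, higher. Of all genes DESeq2 called 590 lower and 693 higher, and limma-voom 655 lower (7.69%) and 886 higher. The 590 were 2.67% of all 22130 genes with reads, which were not filtered for low counts. That share is therefore not comparable with the 6.01% of the 8513 genes tested by edgeR. In 19 of the 30 genes every Eef1g-cKO library lay below every control library, which was the case for 18.1% of all tested genes. Only 2 of the 30 also passed a log2 fold change of -1, namely Rps4x and Rpsa, beside 4.96% of all tested genes. Under the scaling alternatives, which were RLE, the upper quartile, library totals and TMM without ribosomal protein genes, 13 to 17 members were called lower and none higher. Of all tested genes 6.03% to 7.55% were lower under these scalings. The median of the members stayed 0.49 to 0.50 below that of all tested genes. Outside the scalings this gap varied more. It was -0.20 with DESeq2 and with no filter on low counts, both over 22130 genes. It was -0.68 where every library needed 10 reads or more, and ran from -0.58 to -0.34 with a library left out. Library totals moved the median of all genes to -0.24 and turned the calls over all genes from 512 lower and 664 higher into 643 lower and 333 higher. The number of members lower was 4, 6 and 5 without control replicate 1, 2 or 3 and 5 without Eef1g-cKO replicate 1. Calls fell over all tested genes as well, to 2.52%, 2.73%, 2.74% and 4.49% lower in the same order. Without Eef1g-cKO replicate 2, 13 members were lower, beside 6.38% of all tested genes. Without Eef1g-cKO replicate 3, the shallowest library, 14 members were lower and 1 was higher. In that fit 668 of all 9735 tested genes were lower and 834 higher.

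**Figure D2:**
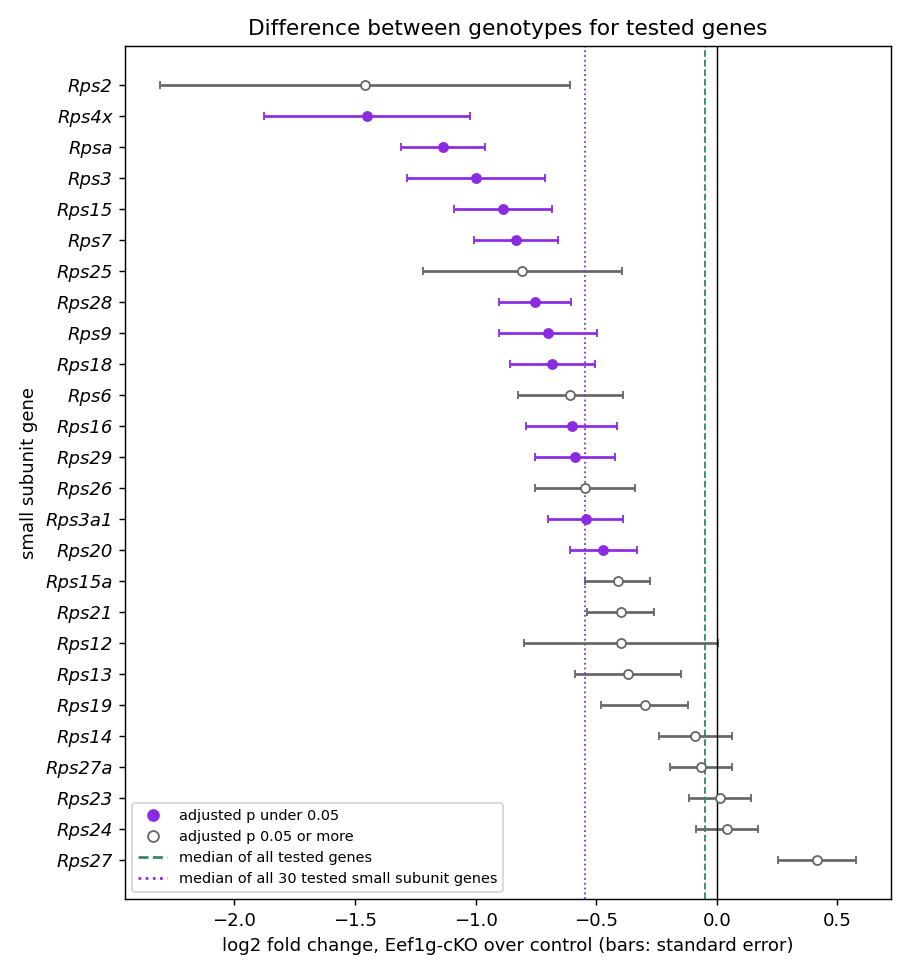
Log2 fold change of 26 of the 30 tested genes, Eef1g-cKO over control, with its standard error; filled symbols mark the 12 genes with an adjusted p under 0.05 in edgeR's quasi-likelihood test. The genes run from -1.46 (Rps2) to 0.42 (Rps27), with a median over all 30 of -0.54 (dotted line) against -0.05 for all tested genes (dashed line).

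The gene most clearly lower was Rpsa (ENSMUSG00000032518, chr9:120127689-120132369 in GRCm38), whose protein is related to the laminin receptor and sits on the platform near the mRNA exit. It had 662, 643 and 781 CPM in control replicates 1 to 3 and 268, 384 and 293 CPM in Eef1g-cKO replicates 1 to 3. The groups were well apart, and Rpsa fell by 1.13 on the log2 scale (SE 0.17, adjusted p = 0.000316), to 0.456 of its control level. Its share of all small subunit reads went from 2.67% ± 0.250 to 1.53% ± 0.200. The annotation places the snoRNA gene Snora62 within Rpsa.

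Rps4x, the X-linked gene of a body protein, was the least abundant of the tested members. Its reads numbered 68, 131 and 115 in control and 13, 94 and 11 in Eef1g-cKO, or 51.9, 68.8 and 64.4 CPM against 10.5, 36.9 and 17.0 CPM. All Eef1g-cKO libraries were below all control libraries, and Rps4x fell by 1.45 on the log2 scale (SE 0.43, adjusted p = 0.0284). The low counts limit this call, which was lost without any 1 of the control libraries (adjusted p = 0.066, 0.112 and 0.106 without replicates 1 to 3) and without Eef1g-cKO replicate 1 (0.110).

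Near the entrance of the mRNA channel lie Rps3 and Rps2. Rps3, a protein of the head, had 205, 191 and 198 CPM in control and 120, 124 and 43.2 CPM in Eef1g-cKO, and fell by 1.00 on the log2 scale (SE 0.29, adjusted p = 0.0266). Rps2 had the lowest log2 fold change of the family but was not called (-1.46, SE 0.85, adjusted p = 0.352). It was singled out after its values were seen. Its control levels were 247, 242 and 254 CPM, whereas its Eef1g-cKO levels were 116, 134 and 3.09 CPM. The lowest of these stands for 2 reads in Eef1g-cKO replicate 3, beside 144 and 341 reads in replicates 1 and 2. Without that library Rps2 was called lower (-0.94, SE 0.19, adjusted p = 0.00178). The same library held 79 reads on the 34 processed pseudogenes that share stretches of 100 bases with the Rps2 mRNA, and how reads with several alignments were treated was not stated.

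The other genes called lower came from both parts of the subunit. In the head, 7 of 13 tested genes were lower, with a median log2 fold change of -0.59. Besides Rps3 these were Rps15, which helps precursor subunits leave the nucleus (-0.89), Rps28, near the mRNA exit (-0.75), Rps18, which contacts the large subunit (-0.68), Rps16, whose tail reaches the peptidyl tRNA (-0.60), Rps29, a zinc-binding protein (-0.59), and Rps20 (-0.47). In the body and platform, 5 of 17 genes were lower, with a median of -0.54. Besides Rpsa and Rps4x these were Rps7, which also binds the p53 ligase Mdm2 (-0.83), Rps9, near the mRNA entrance (-0.70), and Rps3a1 (-0.54). Adjusted p-values of these 9 genes ran from 0.00250 for Rps28 to 0.0389 for Rps16. Over all tested genes 6.01% were lower, with a median of -0.05. The difference between head and body was not tested. Rps3a1 had the highest mean control level on the table's length, an order not resolved from Rps21, and rank 7 on the mRNA length. It had 2257, 1857 and 1722 CPM in control and 1139, 1589 and 1271 CPM in Eef1g-cKO, with no overlap (SE 0.15, adjusted p = 0.0237).

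Only Rpsa, Rps7 and Rps28 were called lower in the main test and under each of the 23 alternatives. Rps7 had 714 to 800 CPM in control and 321 to 516 CPM in Eef1g-cKO, and its log2 fold change ranged from -1.01 to -0.61 over the alternatives. Rps28 had 855 to 942 CPM in control and 479 to 592 CPM in Eef1g-cKO, with a range of -0.95 to -0.64.

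**Figure D3:**
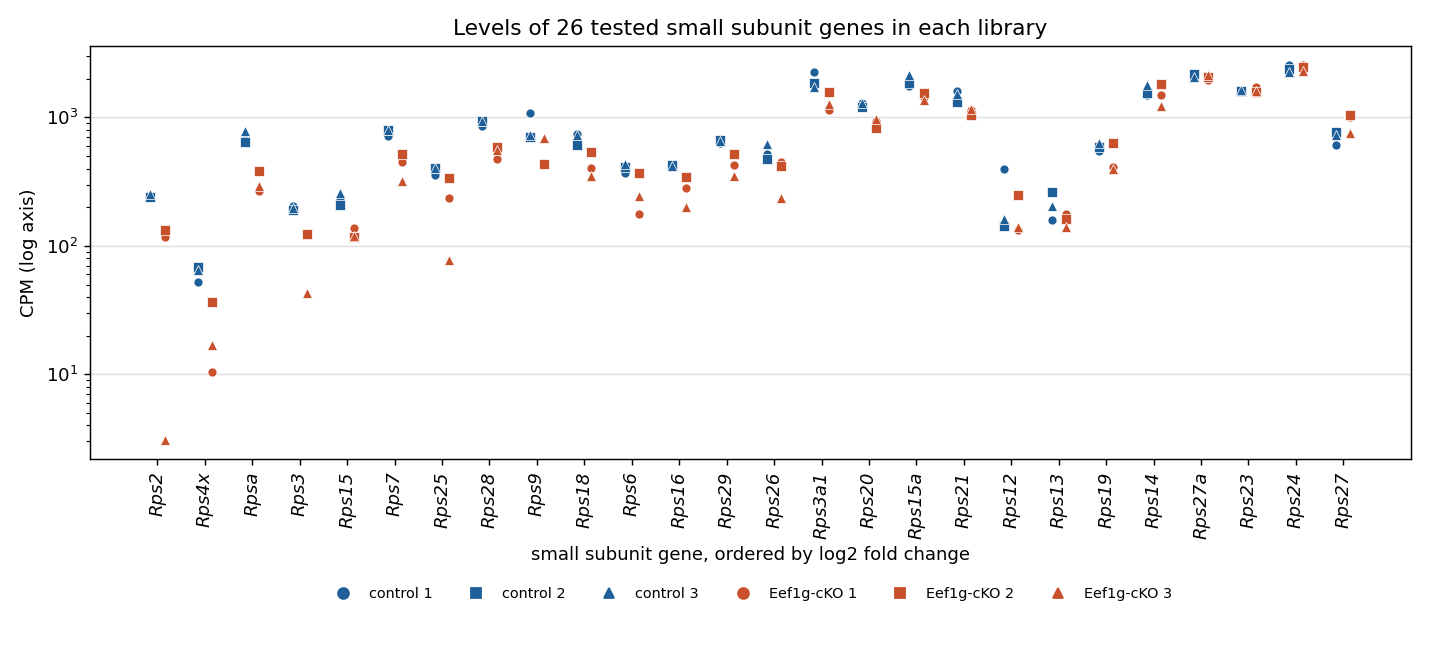
CPM of 26 of the 30 tested genes in each of the 6 libraries on a log axis, with control in blue and Eef1g-cKO in orange, ordered by log2 fold change. Rps2 in Eef1g-cKO replicate 3 stands apart at 3.09 CPM; to the right, Rps23, Rps24 and Rps27a overlap between the genotypes, and for Rps27 2 of 3 Eef1g-cKO libraries lie above every control library.

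Of the 18 tested genes that were not called, 7 had adjusted p-values between 0.05 and 0.1. Among these 7 the estimate of Rps27 was positive (0.42) and the others were negative. The share of all tested genes in this range is not given here. Another group of the 18 lay near zero. Rps6, the substrate of the S6 kinases, was at -0.61 (SE 0.22, adjusted p = 0.0736). Rps15a was at -0.41 with groups that did not overlap (adjusted p = 0.0503), and Rps21 at -0.40 (adjusted p = 0.0636). Rps21 had 1593, 1311 and 1523 CPM in control and 1149, 1053 and 1158 CPM in Eef1g-cKO. Rps19, mutated in Diamond-Blackfan anaemia, was at -0.30 (SE 0.18, adjusted p = 0.30).

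The genes near zero were abundant ones. Rps23 had 1614, 1602 and 1629 CPM in control and 1714, 1580 and 1593 CPM in Eef1g-cKO, with a log2 fold change of 0.01 (SE 0.13). Rps24, which had the most reads of the family, was at 0.04 (SE 0.13), Rps27a, made as a fusion with ubiquitin, at -0.07 (SE 0.13), and Rps14, a platform protein, at -0.09 (SE 0.15). The sign of Rps23 and of Rps24 became negative with upper-quartile scaling and with library totals. As the sum of the family was lower, the share of these genes within it was higher: Rps24 made up 9.18% ± 0.601 of the small subunit reads in control and 12.0% ± 0.783 in Eef1g-cKO. Across the 30 tested genes the log2 fold change was higher for members with a higher control CPM (Pearson's r = 0.613, Spearman's rho = 0.529), a description over genes of the same 6 libraries. Control CPM enters both of these measures. For the 9 genes with a mean control level of at least 1000 CPM the median was -0.40, and 2 of them were called lower. The 21 below that level had a median of -0.68, and 10 were called lower. The largest value of the first group was 0.04 and the smallest -0.54, whereas the second spanned -1.46 to 0.42. Over all tested genes, whatever their level, 6.01% were called lower and the median was -0.05.

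**Figure D4:**
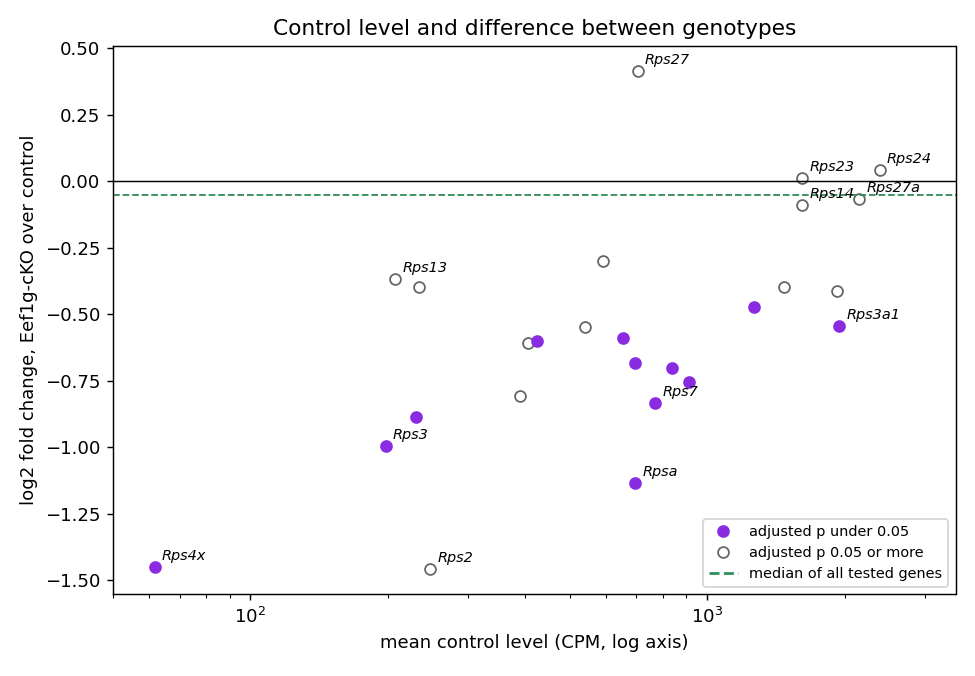
Log2 fold change of 26 of the 30 tested genes against their mean control level in CPM (log axis); filled symbols mark genes with an adjusted p under 0.05. Members with a low control level, such as Rps4x and Rps3, lie lower than Rps23, Rps24 and Rps27a at the right (r = 0.613 over all 30), and Rps27 lies above zero.

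Rps27, which encodes a zinc-binding protein of the body, was the member furthest in the other direction. It was singled out after its values were seen. It had 614, 769 and 733 CPM in control and 1007, 1052 and 758 CPM in Eef1g-cKO, so that the lowest Eef1g-cKO library overlapped the control libraries. The log2 fold change was 0.42 (SE 0.16, adjusted p = 0.0949). It was called higher without Eef1g-cKO replicate 3 (0.58, adjusted p = 0.00592), and with limma-voom (0.45, adjusted p = 0.0149). Its share of the small subunit reads was 2.72% ± 0.367 in control and 4.57% ± 0.528 in Eef1g-cKO. Of the 100-base windows of the Rps27 mRNA, 98.4% also occur in the paralog Rps27rt, which had 365, 247 and 268 reads in control and 363, 496 and 193 in Eef1g-cKO, so the split of reads between the pair is uncertain.

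Shared sequence was common in this family. Of the 31 mRNAs, 12 shared over 50% of their 100-base windows with other loci, mostly processed pseudogenes, and Rps3 and Rps21 shared none. Among the 19 genes at or under that limit 9 were called lower with a median log2 fold change of -0.55, and among the other genes 3 of 11 tested were called lower with a median of -0.46. Over all tested genes 6.01% were called lower and the median was -0.05. Across the 30 tested members the log2 fold change had little relation to the shared percent (Pearson's r = 0.148, Spearman's rho = 0.114, a description). Reads on the processed pseudogenes made up 11.2% to 13.4% of the reads on members and pseudogenes together in control and 9.37% to 15.7% in Eef1g-cKO. With these reads added to their members 15 were called lower and 0 higher, an alternative chosen after the data had been seen. In that fit 520 of all 8470 tested genes were lower and 669 higher.

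Rps10, a head protein, was nearly without reads and was not tested. It had 0, 0 and 5 reads in control and 0, 2 and 1 in Eef1g-cKO, where 3 reads correspond to 1.18 to 4.63 CPM in these libraries. Of its 100-base windows 79.7% also occur at other loci. The processed pseudogene Rps10-ps1 had 53, 59 and 69 reads in control and 34, 49 and 16 in Eef1g-cKO. Rps10-ps2 had 32, 63 and 35 reads in control and 24, 65 and 6 in Eef1g-cKO. A row for the read-through gene RPS10-NUDT3, which overlaps Rps10 on the same strand, held 0 reads in all 6 libraries. A stretch of 75 coding bases in exon 3 of Rps10 shows how close these copies are, with capitals for bases that differ from Rps10 (GENCODE transcripts, GRCm38).
Rps10 (chr17:27634121-27634195, minus strand): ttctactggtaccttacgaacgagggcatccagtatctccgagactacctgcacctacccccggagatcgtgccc
Rps10-ps1 (chr3:95622476-95622550, plus strand): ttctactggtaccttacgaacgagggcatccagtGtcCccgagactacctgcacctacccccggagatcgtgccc
Rps10-ps2 (chr16:20822368-20822442, minus strand): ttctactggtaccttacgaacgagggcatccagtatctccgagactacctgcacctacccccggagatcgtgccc
Rps10-ps1 differed at 2 of these bases and Rps10-ps2 at 0. RPS10-NUDT3 shared 89.5% of the 100-base windows of Rps10. Rps27, Rps12 and Rps6 shared 98.4%, 88.9% and 83.6% of their windows with other loci and had 7997, 1973 and 3373 reads in all. The deposited counts were not taken as the level of Rps10 itself. How reads were assigned, and why Rps10 had so few, was not tested.

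The symbol rule leaves out Fau and Rack1, the remaining proteins of the small subunit. Fau, made as a fusion with a ubiquitin-like protein, had 257, 213 and 252 CPM in control and 154, 233 and 145 CPM in Eef1g-cKO (log2 fold change -0.42, SE 0.21, adjusted p = 0.206). Rack1, a scaffold on the head, was at -0.39 (SE 0.18, adjusted p = 0.154). Neither was called, and the groups of both overlapped. Of 22 tested factors that assemble the small subunit, 1 was called lower and 1 higher, with a median of -0.13. Over all tested genes 6.01% were lower and 7.8% higher, with a median of -0.05. The counts among the factors are thus no larger than those shares. Emg1, which modifies a base of the small subunit rRNA, had 230, 233 and 221 CPM in control and 93.0, 114 and 88.0 CPM in Eef1g-cKO, and fell by 1.20 on the log2 scale (SE 0.21, adjusted p = 0.000991). Ltv1, which is released when the head matures, had 118, 167 and 120 CPM in control and 299, 250 and 270 CPM in Eef1g-cKO, and was higher by 1.01 (SE 0.21, adjusted p = 0.00292). Of 7 tested regulators of TOP mRNAs and S6 kinases, among them Larp1, Mtor and Rps6kb1, 0 were called in either direction at the adjusted level and 1 at an unadjusted p under 0.05, with a median of -0.16. At that unadjusted level 13.2% of all tested genes were lower and 14.3% higher.

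Eef1g itself had 291, 430 and 378 reads in control and 172, 384 and 77 in Eef1g-cKO, which is 220 ± 7.34 and 136 ± 16.0 CPM. It fell by 0.68 on the log2 scale (SE 0.20, adjusted p = 0.0290), a gene-level count that does not separate the deleted exons. Without control replicates 1 to 3 in turn its adjusted p was 0.110, 0.121 and 0.0919, and without Eef1g-cKO replicate 1 it was 0.0837. Library totals ran from 763133 reads in Eef1g-cKO replicate 3 to 2617648 in Eef1g-cKO replicate 2, and nuclear rRNA took 2.73% to 9.23%, the most in Eef1g-cKO replicate 3. All 10 spermatocyte markers were detected and their summed level was 13867 to 15114 CPM in control and 29440 to 36387 CPM in Eef1g-cKO. Dazl and Sycp1 contributed most, with means of 5770 and 5101 CPM in control and 13880 and 10487 CPM in Eef1g-cKO. The study uses VASA, encoded by Ddx4 of this list, as a marker of germ cells and counts Dazl as spermatogenesis-related. The list is thus not particular to spermatocytes, and its sum does not measure their share. Of the 10 markers 6 were called higher and 1, Stra8, lower. Meiob, Spo11 and Prdm9 were not called (log2 fold changes 0.06, 0.07 and 0.84). Markers of several other cell types moved with genotype as well: the sum of 10 spermatogonial markers was 559 to 713 CPM in control and 191 to 249 CPM in Eef1g-cKO. For 7 peritubular and stromal markers the sums were 188 to 321 and 18.5 to 78.8 CPM, and for 8 Sertoli cell markers 64.1 to 201 and 1.54 to 30.7 CPM. For 10 markers of pachytene and later germ cells they were 48.3 to 55.7 and 4.63 to 28.3 CPM, with Acrv1 and Prm2 at 0 throughout, and for 6 Leydig cell markers 8.40 to 10.7 and 1.57 to 6.47 CPM, with Cyp17a1 and Hsd3b1 at 0. For 7 blood cell markers they were 6.72 to 74.8 and 3.23 to 75.7 CPM, with Csf1r, Cd68 and Cd74 at 0. Of the tested markers, 4 of 5 spermatogonial, 4 of 5 peritubular and stromal, 1 of 3 Sertoli cell and 1 of 3 later germ cell genes were called lower. The part of these cells in the lower small subunit levels was not tested.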

How the data were processed

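Polyadenylated RNA of 6 sorted L/Z spermatocyte libraries (3 control, 3 Eef1g-cKO) was amplified as full-length cDNA without molecular identifiers, so low counts and floors cover counting error only. The authors trimmed reads with fastp, aligned them to GRCm38 with HISAT2 and counted them per gene with featureCounts; strand and multi-mapping settings are not given in the sources used here, so overlapping genes, antisense genes and near-identical copies are uncertain. The authors deposited unnormalized counts of reads for each Ensembl gene. Genes passing filterByExpr (minimum count 10, minimum total 15; 8513 genes) were tested with edgeR 4.0.16 in R 4.3.3: TMM, robust quasi-likelihood F test, genotype as the only term, Benjamini-Hochberg over all tested genes. CPM used TMM-scaled libraries. The SE was derived from the test, as the absolute log2 fold change over the square root of the F statistic. A gene was called at an adjusted p under 0.05, and a log2 fold change limit of 1 was counted beside it. All pairs of libraries differed beyond sampling noise (chi-square over its degrees of freedom at least 6.37). The script was tested on simulated data. Windows of 50 and 100 bases were compared between GENCODE M21 transcripts (GRCm38). The members and lists were chosen with earlier results of these data known. Members past both limits, those with the 3 highest and 3 lowest levels per length and members failing the filter are given by library; of other lists, Fau, Rack1 and the called genes. Some members are counted but not reported singly here. Alternatives were other scalings, filters, DESeq2 1.42.0, limma-voom (limma 3.58.1), GC content and length offsets, pseudogene reads added, thinning, a replicate block and each library left out.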

Additional observations from a re-analysis of the deposited data

How the results depend on the processing

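The number of members called lower was within 1.5 times the 12 of the main test under RLE, upper-quartile and library-total scaling, DESeq2 (15) and the other alternatives, except with limma-voom (19), with a replicate block together with a GC content offset (6) and with a library left out (4 to 14). In those exceptions 7.69%, 4.15% and 2.52% to 6.86% of all tested genes were lower, beside 6.01% in the main test. The number called higher was 0 outside the following fits. It was 1 (Rps27 each time) with limma-voom, the GC content offset, the gene length offset and the replicate block with the GC content offset. It was also 1, again Rps27, without Eef1g-cKO replicate 3. In the same order 886, 436, 640 and 341 of all 8513 tested genes were higher, and 834 of 9735 without that library. Members lower past the fold limit numbered 4 with upper-quartile scaling, 5 with library totals and 4 where every library needed 10 reads or more. They numbered 1 with the GC content offset, 4 with the replicate block and 1 to 5 with a library left out. In the same order 7.51%, 7.55%, 7.20%, 5.45%, 4.43% and 2.52% to 6.86% of all tested genes were lower at the adjusted p alone. The share of all tested genes past the fold limit was 4.96% in the main test and is not given for these fits. The median log2 fold change was -0.73 with library totals and -0.68 where every library needed 10 reads or more, and ranged from -0.65 to -0.41 with a library left out. Eef1g lost its call with no filter on low counts (-0.64), the GC content offset (-0.49), the replicate block (-0.69), the block with the GC content offset (-0.50) and thinning (-0.64), and ranged from -0.75 to -0.56 with a library left out.

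Signs turned only among members near zero or with wide spread. Rps23 was at -0.11 with upper-quartile scaling, -0.18 with library totals, -0.13 where every library needed 10 reads or more, -0.073 with the GC content offset, -0.074 with the block and GC content offset and -0.069 with thinning. Under the same 6 settings Rps24 was at -0.082, -0.15, -0.099, -0.19, -0.18 and -0.018. Rps14 was at 0.25 with the GC content offset, 0.013 with the length offset and 0.25 with the block and GC content offset, and ranged from -0.22 to 0.076, the value without Eef1g-cKO replicate 3, with a library left out. Rps27a was at 0.017 with the length offset. Rps12 ranged from -0.76 to 0.23 with a library left out, the last without control replicate 1, which had 520 of its reads beside 273 and 287 in the other control libraries. The causes were not tested.

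The replicate numbers did not pair the libraries: deviations from the group means of same-numbered libraries correlated at -0.04, 0.02 and -0.05. With the replicate block 10 members were called lower and 0 higher, 9 of them shared with the main test. In that fit 377 of all 8513 tested genes were lower and 496 higher. Depth limits the low members: 3 reads were worth 4.63 CPM in Eef1g-cKO replicate 3, and Rps10 could not be tested.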
